A study of Homo sapiens with 11 samples.

Results

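The HOX genes of the HOXA, HOXB, HOXC and HOXD clusters were examined in 92-1 cells, an established cell line grown from a uveal melanoma, a tumour of pigment cells inside the eye. Members were all RefSeq protein-coding genes of GRCh38 whose symbol is HOXA, HOXB, HOXC or HOXD followed by a number, each taken as the gene body with 5 kb either side. This gave 39 genes of 20037, with 11 in HOXA (chr7:27087993-27205091), 10 in HOXB (chr17:48523526-48733750), 9 in HOXC (chr12:53933831-54061030) and 9 in HOXD (chr2:176082487-176195907), where each interval runs from the first to the last member with the same 5 kb flanks. The rule uses gene symbols and no measured value. The cells received either DMSO, which is the vehicle, or FHT-1015 for 4 h. This compound blocks SMARCA4 and SMARCA2, the alternative ATPase motors of the BAF chromatin remodelling complexes. Chromatin was precipitated with antibodies against acetylated lysine 27 of histone H3 (H3K27ac), SMARCA4, MITF, TFAP2A and SOX10, and each antibody gave 1 library in each condition, so that no difference between conditions has a replicate check and no test was made. The remaining sample, 1 input library of DMSO cells, entered no comparison. Chromatin had been fixed with formaldehyde and sonicated.

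HOX genes encode homeodomain transcription factors that give cells their position along the body axis, and their order in a cluster follows the order of their domains in the embryo. In cells that do not use a HOX gene, Polycomb complexes keep its chromatin closed and marked by H3K27 methylation, which excludes H3K27 acetylation on the same histone tail, and BAF and trithorax complexes were named from fly genes that oppose Polycomb at HOX loci. H3K27ac marks active promoters and enhancers. MITF, SOX10 and TFAP2A are the transcription factors of the pigment cell lineage, which arises from the neural crest.

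The peak lists held between 33268 (SOX10, FHT-1015) and 142667 peaks (TFAP2A, DMSO), and their lowest −log10 p lay just above 2, so that weak peaks are included. From the fold and p of each peak, the depth of the FHT-1015 library came out at 0.854 to 1.15 times that of the DMSO library of the same antibody. A peak of the DMSO list counts as retained if it overlaps a peak of the same antibody in FHT-1015 by 1 bp or more, and as lost if it does not. An FHT-1015-only peak has no such overlap in the other direction. The line was checked with markers: all 8 pigment cell genes (SOX10, MITF, TFAP2A, PMEL, MLANA, TYR, TYRP1 and DCT) carried H3K27ac in both conditions. Of 6 genes of blood (CD3E and PTPRC), liver (ALB), pancreas (INS), epithelium (EPCAM) and muscle (MYOD1), PTPRC alone had such peaks. It had 4 in DMSO and 1 in FHT-1015, the latter over 1.78% of its window. The other 5 had none in either condition. ACTB, GAPDH and TBP, which all cells use, carried it in both conditions.

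RefSeq promoter sequences of GRCh38.p14, from 250 bases before to 50 bases after the annotated start, were held for 20 of the 39 genes, and are shown first for those whose peaks the results turn on. HOXD1 (chr2:176188418-176188717, plus strand) had the widest H3K27ac cover in DMSO, and HOXC4 (chr12:54016638-54016937, plus strand), whose window is also that of HOXC5, lies under the strongest H3K27ac peak of the clusters. The HOXD13 promoter (chr2:176092471-176092770, plus strand), at a RefSeq start inside the annotated gene, held the strongest FHT-1015-only SMARCA4 peak. HOXD11 (chr2:176107030-176107329, plus strand) carried SMARCA4 without H3K27ac, and HOXA13 (chr7:27200042-27200341, minus strand) lost its H3K27ac peak. HOXA4 (chr7:27130708-27131007, minus strand) and HOXB1 (chr17:48530962-48531261, minus strand) had no peak of any antibody over the promoter in either condition. Sequences run 5′ to 3′ along the gene, and capitals mark matches on either strand to GCCNNNGGC (AP-2), CACGTG or CATGTG (E-boxes, the kind of site MITF binds), and ACAAT or ACAAAG (SOX). The last pair share their first 4 letters, and any other overlap between matches appears as 1 run of capitals.
HOXD1: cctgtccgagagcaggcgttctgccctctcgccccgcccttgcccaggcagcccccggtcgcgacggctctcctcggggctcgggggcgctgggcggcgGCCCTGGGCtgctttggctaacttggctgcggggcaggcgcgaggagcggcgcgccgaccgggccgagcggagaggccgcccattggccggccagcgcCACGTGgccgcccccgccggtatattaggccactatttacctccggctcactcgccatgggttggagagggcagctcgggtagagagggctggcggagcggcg
HOXC4: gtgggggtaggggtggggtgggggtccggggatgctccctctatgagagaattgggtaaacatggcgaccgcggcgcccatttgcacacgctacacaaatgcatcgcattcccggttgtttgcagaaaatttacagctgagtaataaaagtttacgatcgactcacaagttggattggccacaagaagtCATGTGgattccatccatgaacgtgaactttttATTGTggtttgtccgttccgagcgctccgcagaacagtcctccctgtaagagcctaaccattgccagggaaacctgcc
HOXD13: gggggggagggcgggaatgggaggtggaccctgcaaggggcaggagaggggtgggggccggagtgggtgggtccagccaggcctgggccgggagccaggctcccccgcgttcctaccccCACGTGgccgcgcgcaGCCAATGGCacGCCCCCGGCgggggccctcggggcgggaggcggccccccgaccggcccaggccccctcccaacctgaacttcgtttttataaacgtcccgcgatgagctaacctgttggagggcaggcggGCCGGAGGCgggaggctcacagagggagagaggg
HOXD11: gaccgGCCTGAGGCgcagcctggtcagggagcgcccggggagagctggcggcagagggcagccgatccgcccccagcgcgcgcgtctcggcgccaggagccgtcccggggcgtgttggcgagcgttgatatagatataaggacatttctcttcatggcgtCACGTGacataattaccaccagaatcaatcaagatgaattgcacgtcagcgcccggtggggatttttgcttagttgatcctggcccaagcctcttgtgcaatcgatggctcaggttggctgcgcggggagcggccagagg
HOXA13: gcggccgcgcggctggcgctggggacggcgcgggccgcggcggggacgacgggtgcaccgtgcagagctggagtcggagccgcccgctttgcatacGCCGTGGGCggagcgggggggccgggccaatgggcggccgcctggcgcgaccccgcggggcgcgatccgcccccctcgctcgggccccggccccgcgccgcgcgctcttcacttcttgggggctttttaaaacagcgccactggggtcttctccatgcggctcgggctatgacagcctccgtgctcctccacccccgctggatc
HOXA4: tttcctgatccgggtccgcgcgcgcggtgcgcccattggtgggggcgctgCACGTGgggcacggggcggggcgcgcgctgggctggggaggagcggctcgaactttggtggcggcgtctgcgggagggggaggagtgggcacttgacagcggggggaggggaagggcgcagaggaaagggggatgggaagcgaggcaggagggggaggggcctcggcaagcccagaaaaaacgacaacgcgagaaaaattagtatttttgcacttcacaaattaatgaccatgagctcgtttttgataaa
HOXB1: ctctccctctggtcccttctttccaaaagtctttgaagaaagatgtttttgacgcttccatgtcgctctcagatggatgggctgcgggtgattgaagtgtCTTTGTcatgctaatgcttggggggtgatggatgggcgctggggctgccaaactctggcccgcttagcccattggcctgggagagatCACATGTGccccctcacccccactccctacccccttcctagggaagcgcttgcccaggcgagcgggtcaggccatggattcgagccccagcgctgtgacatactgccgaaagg

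At least 1 E-box form stood in 15 of the 20 HOX promoters, against 16.6% of 15843 protein-coding promoters of the same length. CACGTG alone was in 8 (8.88% of all promoters) and CATGTG in 9 (8.43%). HOXC4 and HOXC5 share 1 window, so the 20 genes stand for 19 sequences. Of HOXB only HOXB1 is among the 20, and of HOXC only HOXC4 and HOXC5. Counts over these promoters therefore describe mostly HOXA and HOXD. A MITF peak overlapped 6 of the 15 promoters with an E-box and 1 of the 5 without one in DMSO. GCCNNNGGC was in 6 of 20 (28.3% of all promoters), and all 6 of these, HOXA13, HOXD1, HOXD4, HOXD8, HOXD11 and HOXD13, were overlapped by a TFAP2A peak in DMSO, as were 3 of the 14 without it. ACAAT and ACAAAG were each in 5 (21.1% and 12.8% of all promoters). The letters are a description and show no site of binding.

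Of these 20 promoters, 11 were overlapped by no peak of any antibody in DMSO and the same 11 by none in FHT-1015 (HOXA2, HOXA3, HOXA4, HOXA6, HOXA7, HOXA9, HOXA10, HOXB1, HOXD3, HOXD10 and HOXD12), where 34.0% and 33.1% of all promoters were bare. H3K27ac overlapped 7 promoters in each condition (53.9% of all promoters in DMSO and 55.7% in FHT-1015), with HOXA13 among them in DMSO only and HOXD13 in FHT-1015 only. SMARCA4 overlapped 6 in DMSO and 9 in FHT-1015 (32.9% and 44.7%), the added ones being HOXC4, HOXC5 and HOXD13. TFAP2A overlapped 9 and 6 (58.4% and 58.5%), the 3 without it in FHT-1015 being HOXA11, HOXC4 and HOXC5. MITF overlapped 7 and 7 (33.4% and 32.2%), and SOX10 9 and 3 (56.6% and 30.2%). The only HOX promoters of the 20 still under a SOX10 peak in FHT-1015 were HOXD1, HOXD8 and HOXD11. Several promoters not overlapped had a peak nearby. In DMSO, HOXC4, HOXC5 and HOXD13 each had SMARCA4 within 1 kb of the start, and HOXD13 also H3K27ac. In FHT-1015, HOXA11, HOXC4 and HOXC5 each had TFAP2A within 1 kb. Of the promoters under SOX10 in DMSO only, all but HOXA13 had a SOX10 peak within 1 kb in FHT-1015.

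Most genes of the 4 clusters were acetylated in DMSO. An H3K27ac peak lay in the windows of 33 of 39 HOX genes, against 71.3% of all protein-coding genes, although HOX windows are shorter (median 13785 bp against 34115 bp). With no flanks the count was 25 of 39, for which no share of all genes without flanks is given here. Neighbouring windows overlap, so that 1 peak is counted for several genes, and fewer cells carrying a mark and less of it per cell cannot be told apart. The bases of a window under H3K27ac peaks had a median of 12.1% over the 39 genes and 3.11% over all genes. Both had a median of 2 H3K27ac peaks per window, and in a shorter window the same peak makes a larger share. By antibody in DMSO, SMARCA4 was in 35 windows (75.7% of all genes), MITF in 34 (75.2%), TFAP2A in 37 (86.5%) and SOX10 in 35 (81.6%), and 32 windows held all 5 (61.8%).

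**Figure D1:**
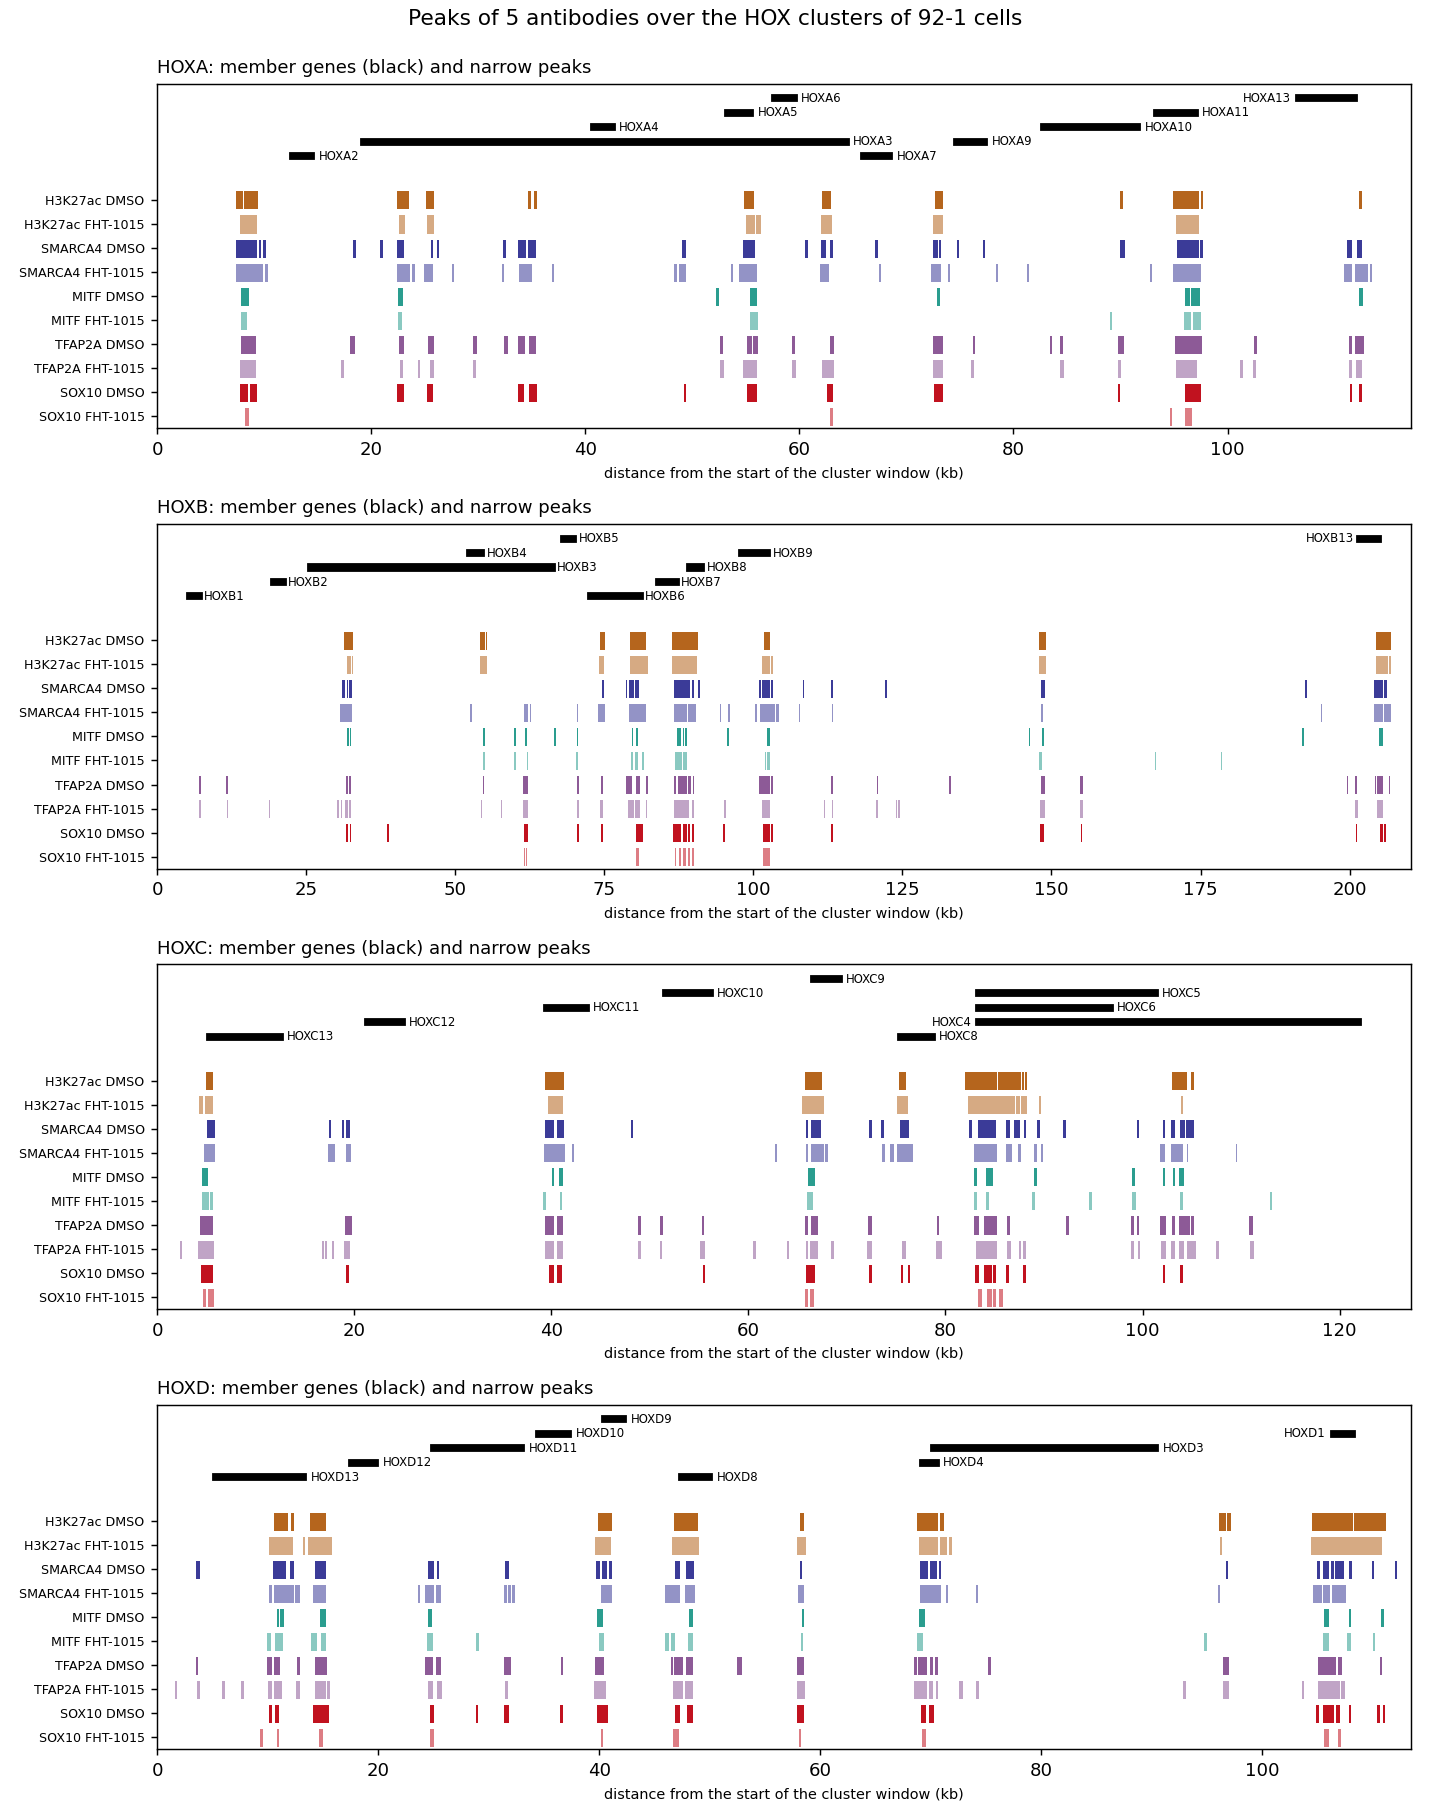
Named member genes (black bars) and narrow peaks of each antibody along the 4 HOX cluster windows, with distance from the window's start in kb on the x axis and 1 row per antibody and condition, solid for DMSO and pale for FHT-1015. Peaks of several antibodies stack at the same places, HOXB1 and HOXB2 lie in a stretch with few peaks, and the SOX10 rows thin from 69 peaks in DMSO to 32 in FHT-1015.

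Within each cluster the acetylated genes were uneven. In HOXD, HOXD1, the member at the anterior end of its cluster, had 54.0% of its window under H3K27ac in DMSO and 52.3% in FHT-1015, the highest DMSO share of the 39. In HOXB, HOXB7 had 51.4% and 52.8%, and its neighbour HOXB8 33.8% and 33.5%. In HOXC, HOXC5 led with 28.0% and 22%, beside HOXC6 with 25.5% and 25.2%, and HOXC4, HOXC5 and HOXC6 share 1 annotated start. In HOXA, HOXA11, a gene of limb and uterus patterning, led in DMSO with 20.8% and had 15.3% in FHT-1015, where HOXA6 had 18%. Each cluster thus held both well covered genes and genes with no acetylation: HOXA4, HOXB1, HOXB2, HOXC10, HOXC12 and HOXD11 had 0% in both conditions.

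The strongest H3K27ac peak of the 4 clusters in DMSO, chr12:54015765-54019085, covered the shared start of HOXC4, HOXC5 and HOXC6. It had 177 reads at its summit in DMSO and 193 in FHT-1015, and the −log10 p in each list was 228 and 252. The strongest HOXB peak, chr17:48609814-48614190 over HOXB7, had 135 and 221 reads. The strongest HOXD peak, chr2:176151218-176153110 over HOXD4, had 70 and 112. These 3 were present in both libraries, with more reads in FHT-1015 than the 1.05-fold difference in depth gives.

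Genes without H3K27ac were of 2 kinds. SMARCA4 without H3K27ac was found in DMSO at HOXC10, HOXC12 and HOXD11, 3 of 39 genes against 9.0% of all genes. Neither was found at HOXA4, HOXB1 and HOXB2, also 3 of 39, against 19.7% of all genes. HOXA4 and HOXB2 had no peak of any of the 5 antibodies in DMSO. HOXB1, which acts in hindbrain patterning, had 2 TFAP2A peaks in each condition, and HOXB2 had 1 of 7 reads in FHT-1015 (1 of 2 genes without TFAP2A in DMSO, against 18.9%). Counting only peaks of −log10 p of at least 10 left 1 gene with SMARCA4 and no H3K27ac in DMSO and 2 in FHT-1015.

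At HOXD11, a gene of forearm and urogenital patterning, the annotated start carried SMARCA4 (18 reads at the summit in DMSO and 35 in FHT-1015), MITF (27 and 22), TFAP2A (24 and 24) and SOX10 (24 and 21), and no H3K27ac in either condition. SMARCA4 peaks covered 6.03% of its window in DMSO and 12.3% in FHT-1015. All 4 proteins were thus called at an unacetylated start, shown in the sequence above with 1 AP-2 match and 1 CACGTG. At HOXC12 the strongest SMARCA4 peak, chr12:53952993-53953430, had 16 and 17 reads, and lay 1677 bp outside the gene under a TFAP2A peak and a SOX10 peak. HOXC10 was the only 1 of 35 genes with SMARCA4 in DMSO and none in FHT-1015 (4.99% of all such genes; 11% had none retained). Its single peak, chr12:53981918-53982127, had 10 reads, and its 3 TFAP2A peaks were retained.

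In FHT-1015, 32 of 39 genes had H3K27ac (69.2% of all genes). SMARCA4 was in 36 windows (78.6%), MITF in 30 (76.2%), TFAP2A in 38 (85.9%) and SOX10 in 27 (59.9%). SMARCA4 without H3K27ac was found at 4 (12.1%), HOXA4, HOXA13, HOXC12 and HOXD11, and neither at 3 (18.8%), HOXB1, HOXB2 and HOXC10. Of the 33 genes with H3K27ac in DMSO only HOXA13 had none in FHT-1015, against 5.03% of all such genes, and it was also the only gene with no retained H3K27ac peak (5.55%). None of the 6 genes without it in DMSO had it in FHT-1015, against 5.11%. HOXA13, the last gene of its cluster and a regulator of distal limb and genital development, had 1 H3K27ac peak in DMSO, chr7:27200306-27200519, with 16 reads and a −log10 p of 6.26. At the same site the SMARCA4 peak had 30 reads in DMSO and 38 in FHT-1015, the TFAP2A peak of 40 reads was overlapped by an FHT-1015 peak of 20 reads whose summit did not pair with it, and the MITF peak of 12 reads and the SOX10 peak of 15 reads were both lost. The change of class at HOXA13 thus rests on 1 weak peak, while SMARCA4 covered 6.01% of the window in DMSO and 13.3% in FHT-1015.

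HOXA4 and HOXB4 were the genes with a SMARCA4 peak in FHT-1015 and none in DMSO, 2 of 4 (27.2% of all such genes). Both peaks were weak, with 10 reads at chr7:27124859-27125087 and 11 reads at chr17:48575988-48576262. HOXB4, a gene used to expand blood progenitors, had 2 H3K27ac peaks in DMSO, both retained. It was the only gene of the 39 with H3K27ac and no SMARCA4 in DMSO.

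**Figure D2:**
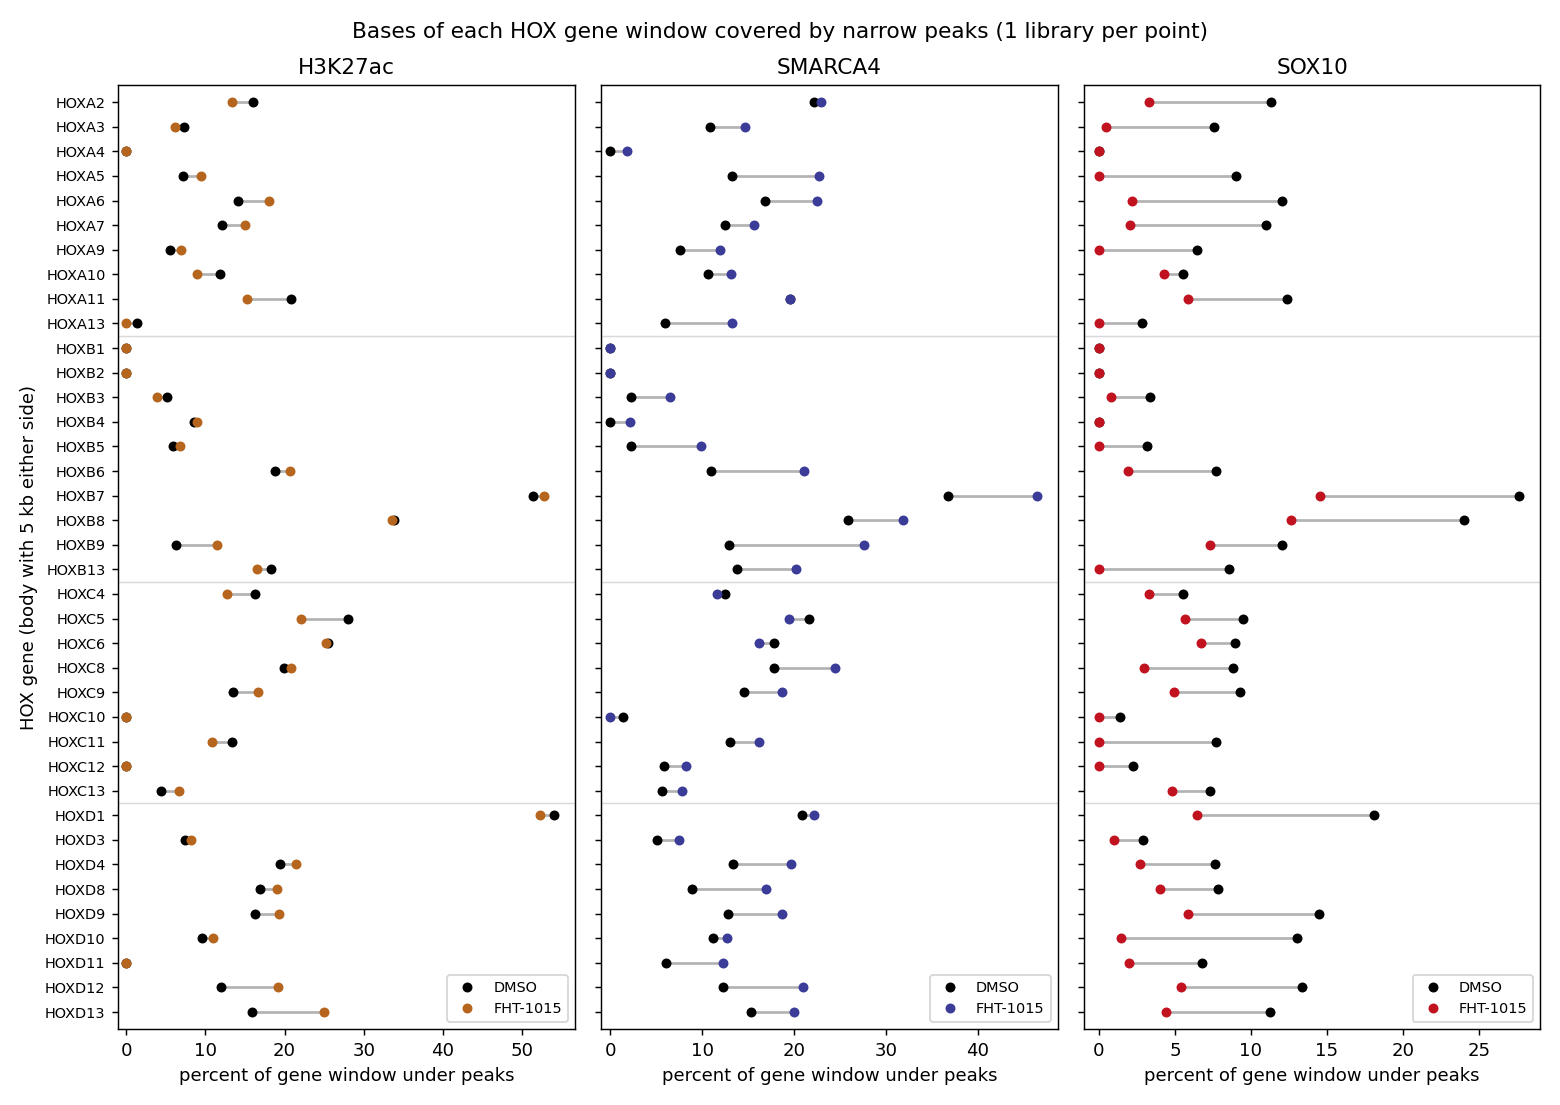
Percent of each named HOX gene's window (body with 5 kb either side) under narrow peaks of H3K27ac, SMARCA4 and SOX10, with DMSO as black points and FHT-1015 as coloured points, 1 library per point. H3K27ac points lie close together (HOXB7 51.4% and 52.8%), SMARCA4 points are mostly higher in FHT-1015 (HOXB9 12.9% and 27.7%), and SOX10 points are lower (HOXD10 13.1% and 1.44%).

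Over the 4 clusters the number of H3K27ac peaks was 45 in DMSO and 42 in FHT-1015, a ratio of 0.933, against 0.706 for the whole lists. By cluster the numbers were 13 and 8 in HOXA, 10 and 13 in HOXB, 10 and 10 in HOXC, and 12 and 11 in HOXD. The covered length was 54894 bp and 54399 bp, a ratio of 0.991, where the whole lists covered 68.2 Mb and 52.1 Mb (0.764). Acetylated length in the HOX clusters was thus nearly equal in the 2 lists, while peaks of the HOXA cluster were fewer and its covered share was 8.47% and 6.91%. The covered share was 7.22% and 7.32% in HOXB, 10.4% and 9.74% in HOXC, and 14.6% and 16.3% in HOXD. By gene, H3K27ac cover was at least 1.5-fold higher in FHT-1015 at 4 of 33 genes (5.29% of all genes), HOXB9, HOXC13, HOXD12 and HOXD13, and at least 1.5-fold lower at 1, HOXA13 (24.7%).

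Of the 45 DMSO H3K27ac peaks, 38 were retained, 84.4% (95% Wilson interval 71.2 to 92.3%), against 59.3% of the whole list. The interval covers counting error over peaks only, and peaks of 1 library are not replicates. The HOX H3K27ac peaks were strong for their list (median −log10 p 21.1 against 9.2), and HOX peaks of every antibody had a larger share at gene ends: 44.7% to 54.2% of the DMSO peaks of each antibody were within 1 kb of a protein-coding gene boundary, against 12.4% to 22.8% in the lists. The whole list's share was therefore also taken at the HOX peaks' own deciles of −log10 p, which gave 71.1%, and at their deciles and boundary share together, which gave 75.4%. The HOX share lay above all 3 values, and its interval held the last. By cluster, 8 of 13 peaks were retained in HOXA, 10 of 10 in HOXB, 9 of 10 in HOXC and 11 of 12 in HOXD, so that 5 of the 7 lost H3K27ac peaks were in HOXA. Of the 30 peaks of −log10 p 10 or more, 28 were retained (87.6% of the list).

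SMARCA4 peaks were 94 in DMSO and 87 in FHT-1015, yet they covered more: 48633 bp and 65838 bp, a ratio of 1.35, against 1.00 for the whole lists (44.8 Mb and 45.0 Mb). The covered length per peak was 517 bp and 757 bp. Over all genes, too, the median SMARCA4 cover of a window was higher in FHT-1015, 1.95% in DMSO and 2.46%. For HOX genes it was 12.5% and 16.2%. The whole-list values here were not matched for gene boundaries. All 4 clusters had more SMARCA4 cover in FHT-1015, from 11.3% to 14.9% of HOXA, 5.80% to 8.93% of HOXB, 9.87% to 11.6% of HOXC and 9.43% to 13.1% of HOXD. Peaks of −log10 p of at least 10 numbered 16 in DMSO and 26 in FHT-1015, a ratio of 1.62 where the whole lists had 0.951, although the FHT-1015 library was 0.918 times as deep. By gene, SMARCA4 cover was at least 1.5-fold higher at 10 of 35 (29.9% of all genes), a share near that background, and at least 1.5-fold lower at 1, HOXC10 (14.4%). The 10 were HOXA5, HOXA9, HOXA13, HOXB3, HOXB5, HOXB6, HOXB9, HOXD8, HOXD11 and HOXD12.

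The strongest FHT-1015 SMARCA4 peak of the clusters, chr17:48624582-48627192 at HOXB9, had 74 reads at its summit. It spans 3 DMSO peaks, of which the one at the same summit had 31 reads. The strongest peak of DMSO in HOXC, chr12:54000144-54001234 at HOXC9, had 34 and 45 reads. At HOXB9, peaks that were separate in DMSO were thus joined into 1 wider peak. The strongest FHT-1015-only peak, chr2:176092606-176092910 with 22 reads and a −log10 p of 14, lies over the HOXD13 promoter shown above, and HOXD13, mutated in limb malformation, was the only HOX gene with an FHT-1015-only SMARCA4 peak of at least 10 (4.42% of all genes).

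Of the 94 SMARCA4 peaks 67 were retained, 71.3% (61.4 to 79.4%), against 52.0% of the list, 52.0% at the same strengths and 60.5% at the same strengths and boundary share. All 16 of −log10 p of at least 10 were retained (85.2% of the list). Of the 87 FHT-1015 peaks 35 were FHT-1015-only, 40.2%, against 45.4% of the list and 39.6% of it at the strengths of these peaks. Of the 26 of at least 10, 1 was FHT-1015-only (4.70%). SMARCA4 and H3K27ac went together in DMSO: 43 of 45 H3K27ac peaks overlapped a SMARCA4 peak (95.6%, against 60.8% of the list), and 58 of 94 SMARCA4 peaks overlapped H3K27ac (61.7% against 55.8%). These list shares were not matched for strength, width or gene boundaries. The HOX H3K27ac peaks were wider than their list (median 843 bp against 515 bp). SMARCA4 was retained at 50 of 58 peaks with H3K27ac (72.5% in the list) and at 17 of 36 without it (26.1%). As shares these are 86.2% and 47.2%, both above those of the list, and the difference between peaks with and without H3K27ac was not tested.

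**Figure D3:**
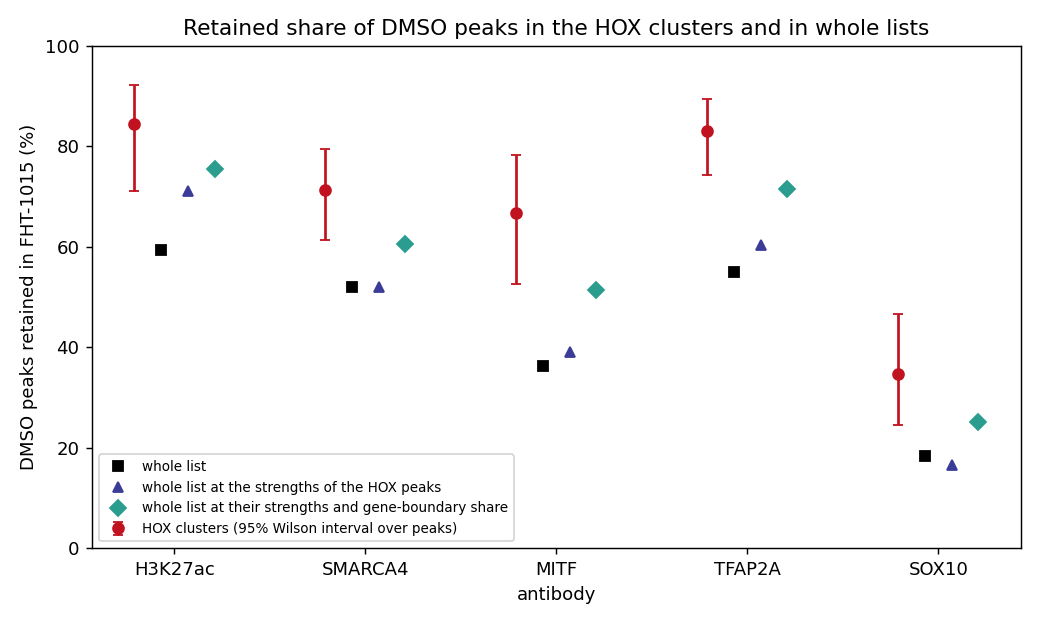
Percent of DMSO peaks retained in FHT-1015 for each antibody on the x axis, in the HOX clusters (red, with 95% Wilson intervals over peaks), in the whole list (black), and in the whole list weighted to the strengths of the HOX peaks (blue) or to their strengths and gene-boundary share (green). The HOX point lies above the other 3 for every antibody, from 34.8% for SOX10 to 84.4% for H3K27ac, and its interval holds the green point for H3K27ac and SOX10.

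SOX10, the neural crest factor, had 69 peaks in the clusters in DMSO and 32 in FHT-1015, a ratio of 0.464 against 0.322 for the whole lists. The numbers were 14 and 4 in HOXA, 20 and 10 in HOXB, 16 and 8 in HOXC, and 19 and 10 in HOXD, lower in all 4 clusters. Of the 69, 24 were retained, 34.8% (24.6 to 46.6%), against 18.3% of the list, 16.5% at the same strengths and 25.2% at the same strengths and boundary share. Covered length was 35172 bp and 11373 bp, a ratio of 0.323 against 0.259 in the whole lists. Peaks of −log10 p of at least 10 were 29 and 5, a ratio of 0.172 against 0.117. Of these 29, 14 were retained (33.0% of the list), and none of the 5 was FHT-1015-only (1.47%). SOX10 cover was at least 1.5-fold lower at 33 of 35 genes, against 89.7% of all genes, and higher at none (0.887%). HOXC6 and HOXA10 were the 2 exceptions, and they were named after their values were seen.

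Of the 35 genes with a SOX10 peak in DMSO, 8 had none in FHT-1015, HOXA5, HOXA9, HOXA13, HOXB5, HOXB13, HOXC10, HOXC11 and HOXC12, against 28.5% of all such genes (37.1% had none retained). SOX10 was retained at 22 of 48 peaks with H3K27ac (29.6% in the list) and at 2 of 21 without it (7.21%). Of the 24 retained SOX10 peaks, 22 thus overlapped H3K27ac in DMSO, as did 48 of all 69. At HOXD8 the strongest HOXD peak, chr2:176129313-176129815, had 37 and 20 reads. At HOXC9 the strongest HOXC peak, chr12:53999634-54000576, had 32 and 27 reads in libraries of which the second was 1.15 times as deep.

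The strongest SOX10 peak of all 4 clusters was lost. It lies inside HOXA3 at chr7:27122718-27123448, with 99 reads at its summit and a −log10 p of 50.1 in DMSO. The strongest lost TFAP2A peak of the clusters, chr7:27122713-27123372 with 91 reads and a −log10 p of 49.4, and the strongest lost H3K27ac peak, chr7:27122651-27122920 with 33 reads and a −log10 p of 12.5, lie on the same 844 bp. The SMARCA4 peak there, of 38 reads in DMSO, was overlapped by an FHT-1015 peak of 22 reads whose summit did not pair with it, and no MITF peak was called in either condition. This interval was therefore the place where the strongest lost peaks of 3 antibodies coincided. HOXA3 is a gene of pharyngeal arch development, and its long annotated body also contains HOXA4, HOXA5 and HOXA6. A place inside it does not tie a peak to HOXA3 alone. In HOXB the strongest SOX10 peak, chr17:48671532-48672313 with 55 reads, lies 45773 bp from HOXB9 between it and HOXB13, and was lost too. There H3K27ac had 125 reads in DMSO and 176 in FHT-1015, SMARCA4 27 and 27, and TFAP2A 90 and 40. The MITF peak of 22 reads in DMSO and that of 19 reads in FHT-1015 at this site share no base, and SOX10 was the only antibody with no peak there in FHT-1015.

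TFAP2A, also a neural crest factor, had 95 peaks in DMSO and 104 in FHT-1015, a ratio of 1.09 against 0.834 for the whole lists. Of the 95, 79 were retained, 83.2% (74.4 to 89.4%), against 54.9% of the list, 60.3% at the same strengths and 71.5% at the same strengths and boundary share. FHT-1015-only peaks were 31 of 104, 29.8%, against 34.4% of the list and 28.6% of it at the strengths of these FHT-1015 peaks. Among peaks of −log10 p of at least 10 the direction was the other way, with 59 in DMSO and 48 in FHT-1015, a ratio of 0.814 against 0.60 in the whole lists. TFAP2A cover was at least 1.5-fold higher at 11 of 37 genes (14.6% of all genes), HOXA5, HOXA6, HOXA7, HOXB3, HOXB4, HOXC8, HOXC9, HOXC10, HOXC12, HOXC13 and HOXD13, and at least 1.5-fold lower at 1, HOXD11 (21.2%). No HOX gene with TFAP2A in DMSO was without it in FHT-1015, where 3.71% of such genes were, and HOXB4 was the only 1 whose DMSO peak was not retained (6.09%). Of 59 DMSO peaks of at least 10, 55 were retained (71.5% of the list), and 1 of 48 in FHT-1015 was FHT-1015-only (4.55%).

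The strongest TFAP2A peak of the clusters in DMSO, chr12:54035594-54036229 inside HOXC4, had 106 reads and 37 in FHT-1015. Pairs with a still lower ratio, chosen after their values were seen, were chr12:53952913-53953613 near HOXC12 with 93 and 13 reads, chr2:176113900-176114510 inside HOXD11 with 86 and 14, and chr7:27110583-27111086 inside HOXA3 with 104 and 26. All 4 overlapped SMARCA4 and SOX10 peaks in DMSO, and 3 of the 4 had no H3K27ac. The 2 unacetylated genes with the most SMARCA4, HOXC12 and HOXD11, thus each held a strong TFAP2A peak that had few reads in FHT-1015. In contrast the strongest HOXB peak at HOXB7, chr17:48610951-48612394, had 94 and 112 reads, and the strongest HOXD peak at HOXD8, chr2:176129278-176130102, 84 and 82. The strongest FHT-1015-only peak, chr17:48618584-48618865 between HOXB8 and HOXB9 with 31 reads, put these 2 genes among those with such a peak of at least 10 (7.61% of all genes).

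MITF, the pigment cell regulator, had 48 peaks in each condition, a ratio of 1.00 against 1.04 for the whole lists. Of the 48, 32 were retained, 66.7% (52.5 to 78.3%), against 36.2% of the list, 39.0% at the same strengths and 51.5% at the same strengths and boundary share. FHT-1015-only peaks were 18 of 48, 37.5%, against 64.8% of the list. At the strengths of the HOX FHT-1015 peaks the list's share was 41.0%, near the HOX share. Of 22 DMSO peaks of −log10 p of at least 10, 20 were retained (61.7% of the list), and none of 16 in FHT-1015 was FHT-1015-only (2.50%). The interval of the retained share lay above all 3 comparison values for MITF, as it did for SMARCA4 and TFAP2A. MITF cover was at least 1.5-fold higher at 8 of 34 genes (14.8% of all genes), 5 of them in HOXD, and at least 1.5-fold lower at 6 (37.9%). MITF was absent in FHT-1015 from 4 of the 34 genes that had it, HOXA7, HOXA9, HOXA13 and HOXB13, against 10.2% (23.2% had none retained).

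The strongest MITF peaks of 3 clusters had similar reads in both libraries. At HOXC13, a hair and nail keratin regulator, chr12:53938393-53938983 had 155 and 145 reads. At HOXB7, chr17:48610727-48611349 had 126 and 120, and at HOXA3 and HOXA5, chr7:27143401-27143989 had 129 and 119. In these libraries, of which FHT-1015 was 0.854 times as deep, the 3 peaks had depth-corrected log2 ratios of 0.13, 0.16 and 0.11. At HOXD8 the strongest HOXD peak, chr2:176130575-176130978, had 33 and 17. The strongest lost MITF peak, chr17:48555290-48555647 inside HOXB3 with 49 reads, lies on a site where SOX10 was lost too, while SMARCA4 (15 and 25 reads) and TFAP2A (19 and 13) were called in both. The H3K27ac peak around it, chr17:48554835-48556369, had 43 reads at its summit in DMSO and 22 at the paired summit in FHT-1015, a log2 ratio of −1.04 and the lowest H3K27ac pair of the clusters, and it was overlapped by 3 separate FHT-1015 peaks, the strongest with 42 reads at a summit of its own.

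**Figure D4:**
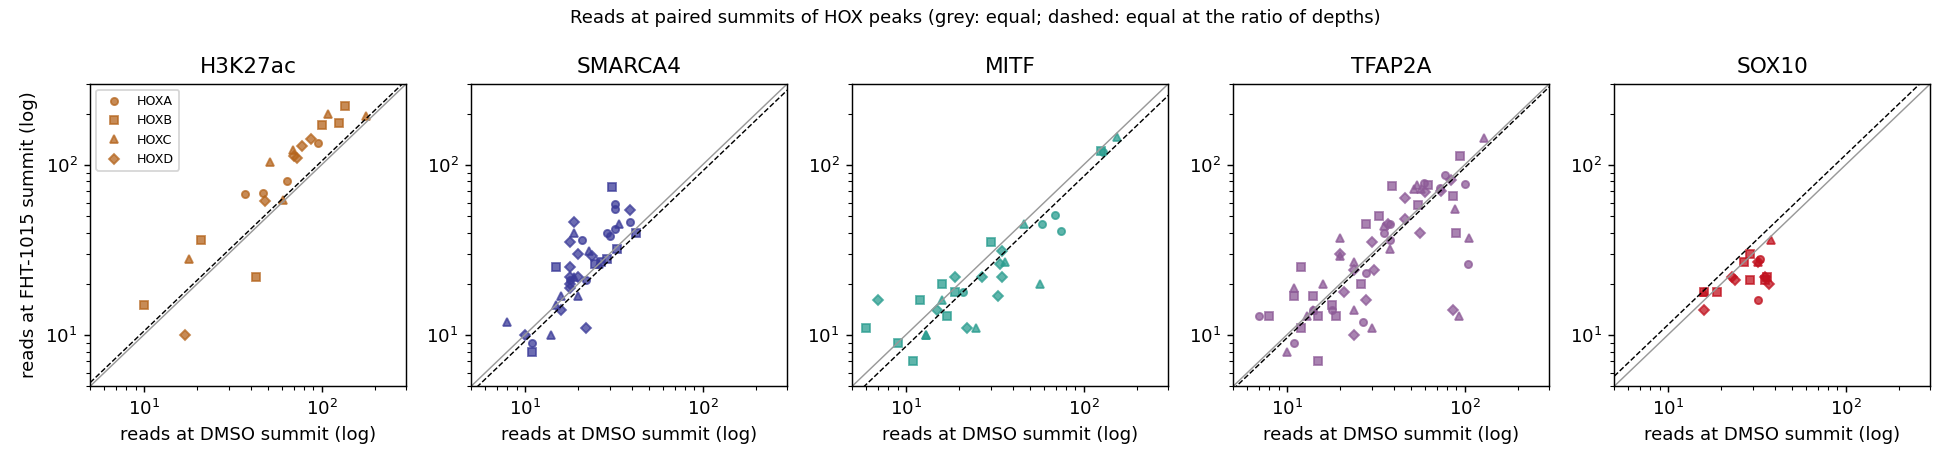
Reads at paired summits of HOX peaks, nearest to each other and at most 200 bp apart, DMSO on the x axis and FHT-1015 on the y axis, both on log scales, with 1 panel per antibody and marker shapes for the 4 clusters. Against the dashed line of equal reads at the ratio of depths, 19 of 22 H3K27ac pairs and 35 of 41 SMARCA4 pairs lie above it, and all 18 SOX10 pairs below it.

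Reads at paired summits gave a view of the same peaks that does not depend on peak calling thresholds once both are called. Pairs were summits nearest to each other and at most 200 bp apart, and ratios were divided by the ratio of depths. For H3K27ac, 19 of 22 HOX pairs were higher in FHT-1015, with a median log2 ratio of 0.54 (range −1.04 to 0.96), against 0.20 over 26073 pairs of the whole lists. For SMARCA4, 35 of 41 were higher, with a median of 0.35 (−0.88 to 1.40) against 0.12. For SOX10, 0 of 18 were higher, with a median of −0.41 (−1.20 to −0.03) against −0.78. MITF had 16 of 31 higher and a median of 0.00 against −0.28, and TFAP2A 37 of 66 and 0.06 against −0.13. Over the 4 clusters together every HOX median was thus higher than that of its list, which was not matched for strength or gene boundaries. By cluster, SMARCA4 in HOXB (0.10) and SOX10 in HOXA (−0.81, 2 pairs) lay below it. The 2 chromatin antibodies were above equal depth-adjusted reads in HOX clusters while SOX10 was below. Peaks that were lost have no pair and do not enter, and neither do retained peaks without a paired summit. For H3K27ac, 38 peaks were retained and 22 pairs formed. One site without a pair, chr7:27110413-27111506 inside HOXA3, had 68 H3K27ac reads in DMSO and 29 in FHT-1015. The counts and ranges of pairs therefore do not describe all retained peaks.

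Peaks of the 5 antibodies in DMSO were merged into 111 sites in the clusters. All 5 were present at 25 of them, 22.5% of sites against 9.82% of all merged sites in the genome. None of the 13 HOX sites with 3 antibodies, the 8 with 4 and the 25 with 5 was without any peak in FHT-1015, where 32.5% of sites of 3 antibodies, 18% of sites of 4 and 5.39% of sites of 5 were empty. Of sites of 1 antibody, 23 of 50 were empty (64.4%), and of sites of 2, 3 of 15 (44.2%). The genome's shares of sites were not matched for strength, width or gene boundaries. At 15 of the 25 sites with all 5, every antibody was still called in FHT-1015 (35.1% of such sites), and the other 10 all lacked SOX10. At 5 of these 10 SOX10 was the only antibody missing: inside HOXC11, inside HOXC4, between HOXB9 and HOXB13, and at a pair of sites inside HOXA3, one of them also at HOXA5. All 5 antibodies were found in 32 gene windows of DMSO (61.8% of all genes) and 25 of FHT-1015 (49.7%).

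FHT-1015-only H3K27ac peaks were 6 of 42, 14.3% against 19.8% of the list and 13.9% of it at the strengths of the HOX FHT-1015 peaks. They lay in the windows of 12 genes (21.1% of all genes). The same count was 28 windows with SMARCA4 (61.0%), 18 with MITF (56.4%), 22 with TFAP2A (58.5%) and 6 with SOX10 (26.8%). Limited to a −log10 p of at least 10, no window had a MITF peak of this kind (1.5%) and none a SOX10 peak (0.125%). The strongest, chr12:53938102-53938503 with 44 reads and a −log10 p of 16.4, lies 459 bp outside HOXC13 beside a DMSO peak whose summit had 51 reads in DMSO and 104 in FHT-1015. The other one of at least 10, chr7:27143967-27144359 with 37 reads, lies inside HOXA3 next to HOXA5, in the windows of HOXA3, HOXA5 and HOXA6. The genes with a peak of this strength were thus 4 of 39, against 2.95% of all genes, from only 2 peaks (2 of the 29 of this strength, against 3.12% of the list). Both lie next to regions already acetylated in DMSO. The strongest FHT-1015-only MITF peak, chr2:176128476-176128819 near HOXD8, had 13 reads, and the strongest of SOX10, chr12:54019273-54019680 in HOXC4, had 14.

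The clusters also hold microRNA genes, of which 8 hairpins are in the RefSeq table. Some are shown, with the seed, bases 2 to 8, in capitals. The miR-196 forms recur across clusters: miR-196b comes from HOXA (chr7:27169480-27169563), and miR-196a from HOXB (chr17:48632490-48632559) and HOXC (chr12:53991738-53991847). Also shown are miR-10a from HOXB (chr17:48579838-48579947) and miR-7704 from HOXD (chr2:176188843-176188901).
hsa-miR-196b-5p: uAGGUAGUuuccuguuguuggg
hsa-miR-196a-5p: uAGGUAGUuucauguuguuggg
hsa-miR-10a-5p: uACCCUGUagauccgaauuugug
hsa-miR-7704: cGGGGUCGgcggcgacgug

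The miR-196 forms share the seed AGGUAGU and are known to target HOX transcripts. No peak overlapped any of their 3 hairpins, and within 1 kb there was no H3K27ac in either condition, 1 DMSO SMARCA4 peak at MIR196A1 and 1 FHT-1015 SMARCA4 peak at MIR196B. MIR10A had H3K27ac within 1 kb in both conditions. MIR7704, inside the acetylated HOXD1 region, was overlapped by H3K27ac, SMARCA4 and TFAP2A in both conditions and by SOX10 in DMSO only. Of the hairpins whose products are shown, only that of miR-7704 thus lay under a peak. Among those not shown, MIR3185 in HOXB was overlapped by TFAP2A in both conditions.

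Genes of the same pathway were read from lists of known HOX partners and regulators. Of 9 HOX cofactor genes, which encode homeodomain proteins that bind DNA with HOX proteins, all 9 carried H3K27ac in DMSO and 8 in FHT-1015, where MEIS3 had none. All 16 Polycomb genes and all 12 trithorax and other HOX activator genes carried it in both. Of 71 other developmental homeobox genes, H3K27ac was found at 38 (DMSO) and 36 (FHT-1015), and 21 and 25 had SMARCA4 without it, against 3 and 4 of the 39 HOX genes. Median H3K27ac cover was 12.1% of the window for HOX genes and 1.57% for these other homeobox genes in DMSO, and 12.6% and 1.07% in FHT-1015. Window length was not matched. SOX10 was in the windows of 56 of the 71 in DMSO (81.6% of all genes) and 39 in FHT-1015 (59.9%). Of 20 neighbours and ParaHox genes, 12 and 11 had H3K27ac, and the one that lost it, HOTTIP, a long noncoding RNA, lies beside HOXA13, and its single H3K27ac peak was the lost one at HOXA13. No count of these lists was tested against another.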

How the data were processed

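ChIP-seq peak lists of 92-1 cells were used, 10 narrow lists (5 antibodies in DMSO and in FHT-1015) and 4 broad lists (H3K27ac and SMARCA4). The submitters' processing notes name hg38, BWA, SAMtools, Picard and MACS2; their settings, and the control each list was called against, are not given in the sources used here. Each list holds, as deposited by the authors, a fold enrichment (a ratio), a −log10 p and a −log10 q per peak, which are each list's own values and rank peaks only within it. The score column, which equals the truncated 10-fold −log10 p or q, was not used. Groups were taken from the sample titles, with TFAP2A written there as AP-2.

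Peaks were assigned to gene and cluster windows by an overlap of at least 1 bp. Whole reads at summits and the ratio of library depths were recovered from the fold and p of each peak, where 100% of values came out whole within a relative tolerance of 0.0001, and 92.0% in the FHT-1015 SOX10 list, whose scale was estimated. The recovered values cover counting error only. Retained shares carry Wilson intervals of 95%. Shares of all genes were computed on all 20037 protein-coding genes. The scripts were tested on simulated data. Python 3.11.15, pandas 2.3.3, NumPy 2.4.6, SciPy 1.17.1 and matplotlib 3.10.9 were used.

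Genes given with values were, by rule, those with SMARCA4 and no H3K27ac in DMSO, the most and least H3K27ac-covered of each cluster, those changing class and those with an FHT-1015-only peak of −log10 p of at least 10. Peaks were the strongest in DMSO per cluster and antibody, and the strongest lost and FHT-1015-only peak of each antibody. Other named items were chosen after their values were seen. Items that the rule names and the text leaves out are not reported here, and counts include them. The members, the gene lists and these rules were chosen with earlier results of these data known. Alternatives tried were other thresholds, flanks, overlaps, list lengths and the broad lists.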

Additional observations from a re-analysis of the deposited data

How the results depend on the processing

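No paired analysis was possible because each antibody and condition had 1 library. Of the results recomputed, 83 values under alternatives stayed within 1.5 times the reported value or, for retained and FHT-1015-only shares, within its counting interval. A further 27 moved and 7 ratios crossed 1. The share of each cluster covered by H3K27ac stayed within 1.5 times under the 3 alternatives tried. Cover by the other antibodies was not recomputed. The cause was not tested for any of the following.

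The ratio of peak numbers, FHT-1015 over DMSO, crossed 1 for H3K27ac with lists cut to equal length (1.11), for SMARCA4 at a q under 0.05 (1.04), at a −log10 p of at least 10 (1.62), with equal lists (1.06) and in the broad lists (1.25), for TFAP2A at 10 (0.814) and for SOX10 with equal lists (1.78). For SOX10 it was 0.172 at 10.

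The retained share was 48.9% for H3K27ac, 43.6% for SMARCA4 and 69.5% for TFAP2A when summits had to lie within 200 bp. Of DMSO peaks of at least 10, H3K27ac had 93.3%, TFAP2A 93.2%, MITF 90.9%, SOX10 48.3% and SMARCA4 100%. With 10 required in both lists it was 87.5% for SMARCA4 and 17.2% for SOX10. For SOX10 it was 18.8% when 50% of a peak had to be covered and 55.6% with equal lists. The FHT-1015-only share by summits was 47.6% for H3K27ac, 51.7% for SMARCA4 and 43.8% for SOX10. At 10, H3K27ac had 6.90%, inside the wide interval of its 14.3%, SMARCA4 had 3.85%, TFAP2A 2.08%, and MITF and SOX10 0%. For the shares by summits, by 50% cover, with 10 in both lists and with equal lists, no whole-list share is given. Those shares allow no comparison of HOX peaks with the list.

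Counted within 1 kb of the starts of the 20 promoters, H3K27ac was at 40% of genes in DMSO and 35% in FHT-1015, and SMARCA4 without it at 15% and 25%. At 10, SMARCA4 without H3K27ac was at 2.56% and 5.13%, and with 2 kb flanks at 17.9% in FHT-1015. No share of all genes is given at these settings, so they allow no comparison with other genes. In the windows of the 20 HOX promoters themselves, H3K27ac overlapped 35% in each condition. These leave out all HOXB genes but HOXB1 and most HOXC genes, among them HOXB7 and HOXC9, whose gene windows hold H3K27ac. For all promoters the shares were higher, 53.9% in DMSO and 55.7% in FHT-1015.

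With 1 library each, a difference in antibody yield or library quality and a difference between conditions cannot be told apart. Peaks of few reads, such as those at HOXA4, HOXB4, HOXC10 and HOXA13, are near the threshold of calling, so that their presence or absence was not firmly measurable at this depth.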
